A study of Bos taurus with 48 samples.

Results

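The proteasome subunit genes were examined in bovine endometrium collected on day 17, when a cow either carried an elongating conceptus or was still cycling. The members were all non-control probes of the array whose gene name, or whose symbol in the last brackets of the description, had the form PSMA to PSMG followed by a number. They came to 47 of 21475 probes and stood for 43 genes, of which 5 were the interferon-inducible genes PSMB8, PSMB9, PSMB10, PSME1 and PSME2 and 38 were the constitutive and regulatory genes. A level of at least 80 units, well above background, in at least 22 of 44 samples was required for a test. It was met by 46 of the 47 probes and, going by the array's symbols, by all 43 genes. The probe that did not was 1 of 2 described as PSMA8. The other PSMA8 probe carries the accession of PSMA7, which also has a probe of its own, so that it is called the probe described as PSMA8 here. All counts of genes and of alpha subunits below go by the array's symbols, and no probe with an accession of PSMA8 was tested. No probe matched an assembly chaperone (PSMG) or PSMB11.

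The study set 12 pregnant against 10 cyclic lactating Holstein-Friesian cows of mixed New Zealand and North American ancestry, whose oestrous cycles had been synchronised. The pregnant cows had received a grade 1 embryo on day 7, the cyclic cows had not, and no age is given for either group. From each of the 22 cows, caruncular endometrium (the aglandular sites where the placenta will attach) and intercaruncular endometrium (the glandular tissue between them) were taken at slaughter, which gave 44 samples. The Cy5 channel of each 2-colour oligonucleotide array held the RNA of 1 sample and the Cy3 channel a pool of all samples, so every value below is a log2 ratio of a sample over that pool, and 0 is the level of the pool rather than of a control group. The labels divide the pregnant cows by the length and weight of the embryo (7 large, 5 small) and by fertility (6 fertile, 6 sub-fertile), and 3 large and 3 small embryos came from cows labelled fertile. What makes a cow fertile or sub-fertile is not stated in the labels. Each sample comes from its own cow within a tissue, and cows are named below as their labels do, for example Pregnant_9790.

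The proteasome is the barrel that degrades ubiquitin-tagged proteins in all cells. Alpha subunits form its outer rings, beta subunits its inner rings, and ATPases and other cap subunits unfold and feed in the substrate. Under interferon, the catalytic subunits PSMB8, PSMB9 and PSMB10 take the places of PSMB5, PSMB6 and PSMB7 in newly built barrels, and PSME1 and PSME2 form an activator ring, which together favour peptides that fit the major histocompatibility complex (MHC) class I groove. In ruminants the elongating conceptus secretes interferon tau, the signal of pregnancy recognition, and the endometrium is its first target.

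Arrays lay on 12 slides that were scanned on 3 days, mostly by tissue and state, and only 3 slides held both pregnant and cyclic cows in a tissue. Between 68.8% and 84% of the spots of an array were well above background. Hybridising 4 caruncular samples again gave member values that differed by a median of 0.05 and at most 0.28. Stromal markers (6 of 6) and the epithelial markers on the array (4 of 4) were measured in both tissues, while of the 6 conceptus markers on the array only PAG1 was above the filter, and its log2 change with pregnancy was 0.16 in caruncular and -0.33 in intercaruncular tissue (adjusted p = 0.528 and 0.348, limma). In these bulk samples fewer cells of a type and less RNA per cell cannot be told apart.

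The genes on which the results turn were read by the following 60-base probes, of which the first 30 bases are shown as the study's probe table lists them, so that each measurement can be traced to the stretch of transcript it reports. Sequences were at hand for 7 of the 47 probes, and all of these are printed. All letters are in lower case because no part of them is set apart.
PSMB8: cccagagacggagaaccagcggccactgga
PSMB9: tgacgagtgaatctccttcctcggactctc
PSME1, brighter probe: atggagatccgcaatgcttacgctgtgtta
PSME1, dimmer probe: ttccacacccactccctgaccatgcaggct
PSME2: gccatctatgtactgagcccagggttagaa
PSMF1: ggctaaaggactgtcttaggcatcttcctt
PSMA2: agccccctagagtctactagatctttctaa
PSME1 thus had probes with 2 unlike sequences, and they gave the same picture for pregnancy below. In the reference annotation (ARS-UCD2.0, used for gene order only) PSMB8, TAP1 and PSMB9 are next to each other in the MHC class II region, and PSME2 and PSME1 are separated by EMC9 alone with IRF9 close by. PSMB10 lies elsewhere. The PSMF1 probe was designed on a predicted transcript that the reference table does not hold, and its identity rests on the array's own description.

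The first question was which proteasome genes differed between pregnant and cyclic cows. All 5 inducible genes were higher in pregnant cows in caruncular tissue at an adjusted p below 0.05, and 4 of them in intercaruncular tissue, by 1.35- to 2.21-fold where the test was passed. At that threshold 11.4% and 9.24% of all probes were higher in the respective tissues. The constitutive counterparts PSMB5, PSMB6 and PSMB7 moved by at most 0.15 on the log2 scale, and none passed. Outside the inducible genes, 6 of 38 genes were higher and 1 was lower in each tissue at the same threshold. Among these PSMF1, which encodes a proteasome inhibitor, and PSMA2, an alpha-ring subunit, rose most.

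PSMB8 encodes the inducible chymotrypsin-like subunit. In caruncular tissue its log2 ratio ran from -1.25 to -0.53 in cyclic cows (median -0.78) and from -0.29 to 0.43 in pregnant cows (median 0.22). The groups did not overlap, and the log2 change was 0.93 ± 0.10 (SE, n = 12 and 10, 1.91-fold, adjusted p = 4.26e-07, limma). Here and below, separation of groups is a description only, because the share of all probes that separate likewise is not given. In intercaruncular tissue cyclic cows ran from -1.33 to -0.15 (median -0.35) and pregnant cows from -0.21 to 0.78 (median 0.17). There the ranges overlapped slightly, since 9 of 12 pregnant cows lay above every cyclic cow, and the log2 change was 0.73 ± 0.16 (1.66-fold, adjusted p = 0.00238, limma).

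PSMB9, the inducible caspase-like-site subunit, showed the largest change of the 5. Caruncular values ran from -1.43 to -0.54 (median -0.93) in cyclic cows and from -0.32 to 0.64 (median 0.31) in pregnant cows. Intercaruncular values ran from -1.15 to -0.39 (median -0.49) in cyclic cows and from -0.36 to 0.86 (median 0.35). In both tissues every pregnant cow lay above every cyclic cow. The log2 changes were 1.14 ± 0.13 (2.21-fold, adjusted p = 1.65e-06, limma) and 0.92 ± 0.16 (1.89-fold, adjusted p = 0.000536).

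PSMB10, the inducible trypsin-like subunit, changed least. Its caruncular values ran from -0.92 to -0.38 (median -0.58) in cyclic cows and from -0.50 to 0.29 (median -0.06) in pregnant cows, and 10 of 12 pregnant cows lay above every cyclic cow. The log2 change was 0.51 ± 0.10 (1.42-fold, adjusted p = 0.000765, limma). Intercaruncular values ran from -0.54 to -0.03 (median -0.17) in cyclic cows and from -0.39 to 0.68 (median 0.15) in pregnant cows. There 8 of 12 pregnant cows lay above every cyclic cow while the others lay among them, and the change of 0.28 ± 0.12 missed the threshold (95% interval 0.03 to 0.53, adjusted p = 0.105, limma).

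PSME1 and PSME2 encode the alpha and beta chains of the activator ring. PSME1 ran from -0.30 to 0.16 (median -0.08) in cyclic and from 0.23 to 1.13 (median 0.61) in pregnant cows in caruncular tissue, without overlap, a log2 change of 0.66 ± 0.09 (adjusted p = 2.57e-05, limma). In intercaruncular tissue it ran from -0.52 to 0.39 (median 0.24) and from 0.28 to 0.88 (median 0.50), with 8 of 12 pregnant cows above every cyclic cow and a log2 change of 0.44 ± 0.11 (1.35-fold, adjusted p = 0.00755). The dimmer PSME1 probe gave 0.68 and 0.52. PSME2 ran from -1.12 to -0.60 (median -0.91) and from -0.51 to 0.30 (median -0.01) in caruncular tissue, and from -0.85 to -0.57 (median -0.67) and from -0.39 to 0.45 (median 0.01) in intercaruncular tissue. Neither tissue had overlap for PSME2, and its log2 changes were 0.83 ± 0.10 (1.78-fold, adjusted p = 3.94e-06) and 0.72 ± 0.10 (1.65-fold, adjusted p = 5.22e-05).

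**Figure D1:**
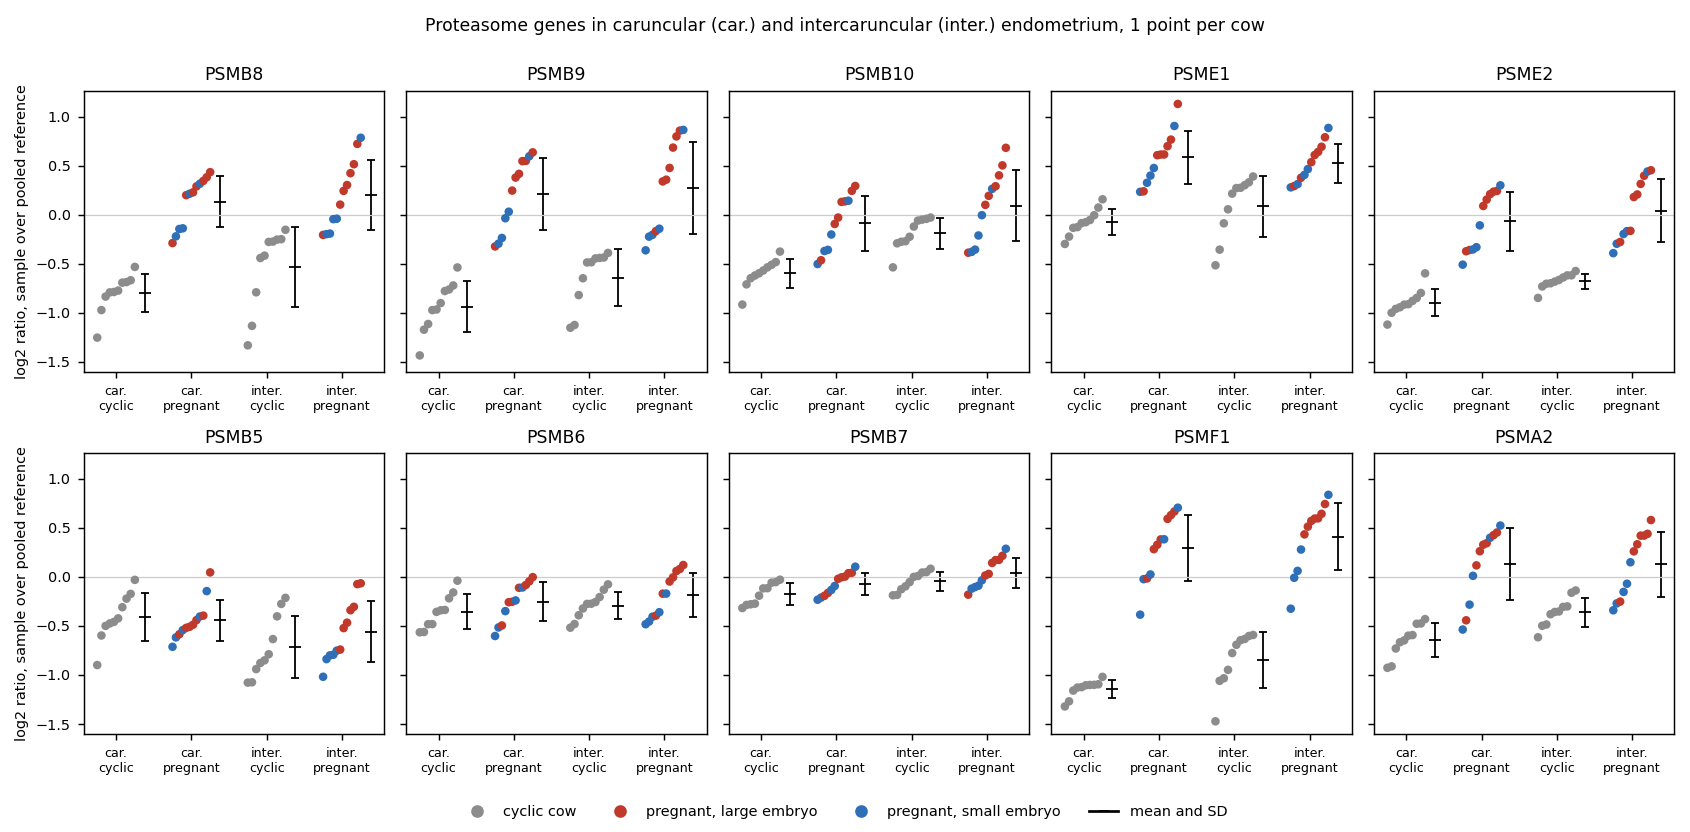
Log2 ratio of each sample over the pooled reference (vertical axis) for the 5 inducible genes, their 3 constitutive counterparts, PSMF1 and PSMA2 in cyclic and pregnant cows of each tissue (horizontal axis), 1 point per cow ordered by value within its group, with the group mean and SD as a black bar. Pregnant cows lie above all cyclic cows for PSMB9, PSME2 and PSMF1 in both tissues, whereas the groups overlap for PSMB5, PSMB6 and PSMB7.

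The 3 constitutive catalytic subunits gave the contrast. PSMB5 ran from -0.90 to -0.03 in caruncular tissue of cyclic cows and from -0.71 to 0.05 in pregnant cows, a log2 change of -0.03 (95% interval -0.23 to 0.17, adjusted p = 0.82, limma). PSMB6 and PSMB7 changed by 0.10 each in caruncular tissue, and in intercaruncular tissue the changes of the 3 genes were 0.15, 0.11 and 0.09. The groups overlapped for all of them in both tissues.

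The ratio of an inducible subunit to the one it replaces was taken within each sample. These differences of log2 ratios carry no absolute ratio of the transcripts, because each probe is scaled to the pool, but they can be compared between cows. PSMB8 minus PSMB5 ran from -0.66 to -0.03 in caruncular tissue of cyclic cows and from 0.15 to 0.95 in pregnant cows, a mean difference of 0.97. PSMB9 minus PSMB6 ran from -1.40 to -0.38 and from 0.14 to 0.84, a mean difference of 1.05. In both cases all 12 pregnant cows lay above every cyclic cow, and for PSMB10 minus PSMB7 10 of 12 did, with a mean difference of 0.41. In intercaruncular tissue the mean differences were 0.58, 0.81 and 0.19, and 4, 12 and 7 of 12 pregnant cows lay above every cyclic cow. PSMB9 minus PSMB6 was therefore the pair without overlap in both tissues.

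**Figure D2:**
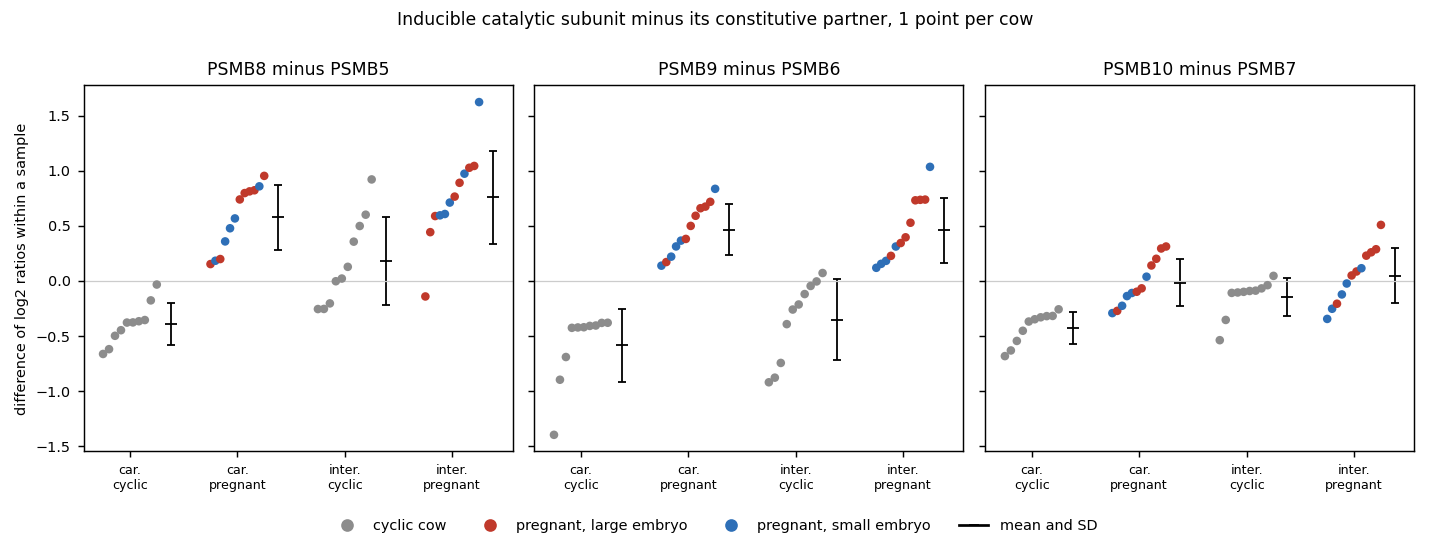
Difference between the log2 ratio of an inducible catalytic subunit and that of its constitutive counterpart in the same sample (vertical axis) for 3 pairs, by tissue and state (horizontal axis), 1 point per cow with group mean and SD. For PSMB9 minus PSMB6 the pregnant cows sit between 0.14 and 0.84 in caruncular and between 0.12 and 1.03 in intercaruncular tissue, above all cyclic cows.

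PSMF1 showed the largest change of all 43 genes. Its caruncular values lay between -1.32 and -1.02 (median -1.11) in cyclic cows and between -0.38 and 0.71 (median 0.35) in pregnant cows, and its intercaruncular values between -1.47 and -0.59 (median -0.73) and between -0.32 and 0.84 (median 0.54). The groups were apart in both tissues, with log2 changes of 1.44 ± 0.11 (2.71-fold, adjusted p = 1.55e-09, limma) and 1.26 ± 0.13 (2.39-fold, adjusted p = 4.78e-07). PSMA2 ran from -0.93 to -0.43 in cyclic and from -0.54 to 0.52 in pregnant cows in caruncular tissue, where 10 of 12 pregnant cows lay above every cyclic cow. Its log2 change was 0.78 ± 0.12 (1.72-fold, adjusted p = 9.24e-05), and in intercaruncular tissue 0.49 ± 0.11 (1.40-fold, adjusted p = 0.00403).

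With the threshold of the study's methods, a change of at least 1.5-fold at an adjusted p below 0.05, 6 of 43 genes (14%) were called in caruncular tissue, where 9.99% of all 14690 probes tested were called in either direction, 5.77% as higher and 4.21% as lower. They were PSMB8, PSMB9, PSME1, PSME2, PSMF1 and PSMA2, all higher. In intercaruncular tissue 4 genes (9.3%) were called, PSMB8, PSMB9, PSME2 and PSMF1, all higher, against 7.24% of all probes, 3.99% as higher and 3.25% as lower. As higher, the family was thus called more often than all probes (14% against 5.77% and 9.3% against 3.99%), a difference that was not tested. The calls lay in the inducible genes (4 of 5 in caruncular and 3 of 5 in intercaruncular tissue) more than in the other 38 genes (2 and 1). The median log2 change was 0.83 and 0.72 over the inducible genes, 0.08 and 0.11 over the other members and -0.04 and -0.01 over all probes.

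Small changes reached the adjusted p below 0.05 without the fold limit, at which 11 genes were higher and 1 lower in caruncular tissue (26.9% of all probes were called, 11.4% as higher and 15.4% as lower) and 10 were higher and 1 lower in intercaruncular tissue (20.3%, 9.24% and 11.1%). PSMC3, an ATPase of the cap, rose by 0.35 ± 0.07 in caruncular tissue (adjusted p = 0.00101, limma). PSMD6, a structural subunit of the cap's lid, was the gene that fell, from between -0.14 and 0.35 in cyclic to between -0.42 and -0.02 in pregnant cows in caruncular tissue, a log2 change of -0.27 ± 0.07 (adjusted p = 0.00452), and by 0.23 in intercaruncular tissue (adjusted p = 0.0151). PSMA5 rose by 0.23 and 0.24 in the respective tissues, PSMB2 and PSMD12 rose in caruncular tissue by 0.25 and 0.24, and PSMA1, PSMB1 and PSMB4 rose in intercaruncular tissue by 0.36, 0.33 and 0.33. A second PSMD12 probe, which reads an expressed sequence tag, gave -0.14 in caruncular tissue (adjusted p = 0.417). By role, 8 of 8 alpha subunits had a positive change in caruncular tissue (median 0.17), against 2 of 6 cap ATPases (median -0.02) and 8 of 14 other cap subunits (median 0.06), but only 2 of the 8 alpha subunits passed at the adjusted p alone. In intercaruncular tissue the roles lay closer, with positive changes in 7 of 8 alpha subunits (median 0.16), 5 of 6 cap ATPases (median 0.03) and 9 of 14 other cap subunits (median 0.09). PSME3 and PSME4, the other activators, changed by 0.24 and -0.12 in caruncular tissue and passed in neither tissue.

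**Figure D3:**
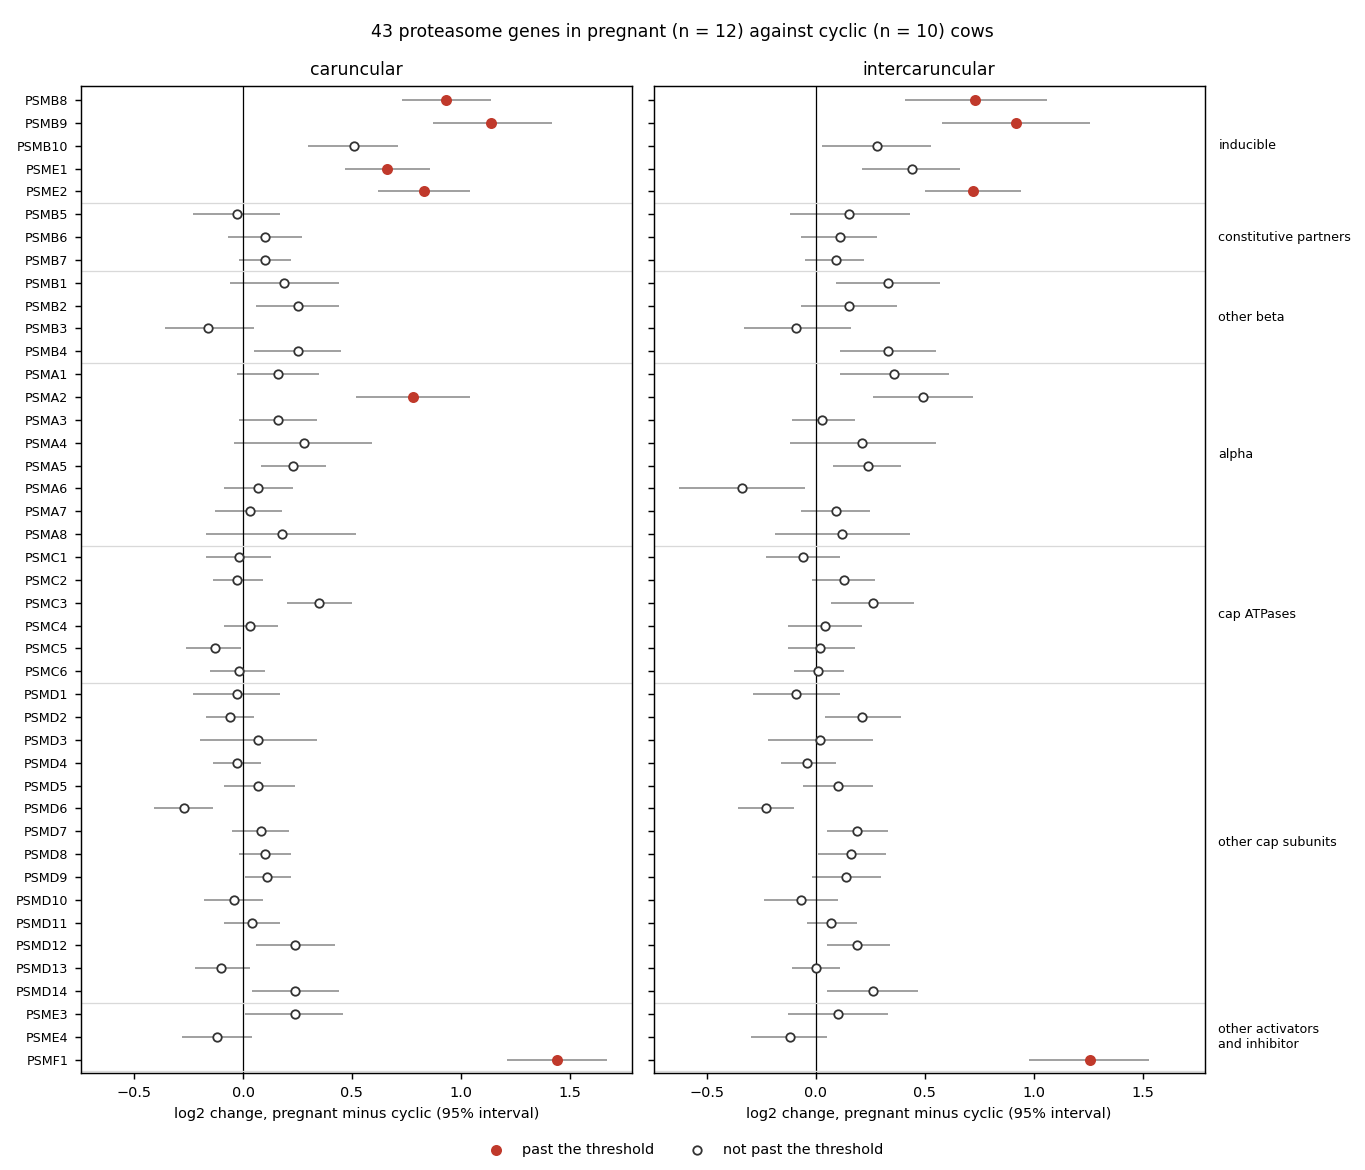
Log2 change between pregnant (n = 12) and cyclic (n = 10) cows with its 95% interval (horizontal axis) for all 43 genes ordered by role (vertical axis), with filled points for a change of at least 1.5-fold at an adjusted p below 0.05. The inducible genes range from 0.51 to 1.14 in caruncular and from 0.28 to 0.92 in intercaruncular tissue, while most constitutive members lie near 0.

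Slide and state were largely shared, so the change was also taken within the slides that held both states. On intercaruncular slide 2, with 3 pregnant arrays and 1 cyclic array, PSMB8 differed by 0.96, PSMB9 by 1.31, PSMB10 by 0.63, PSME1 by 0.68, PSME2 by 0.80 and PSMF1 by 1.12, while PSMB5, PSMB6 and PSMB7 differed by 0.03, 0.00 and 0.01. The small intercaruncular rises were smaller there, at 0.09 for PSMA1, 0.04 for PSMB1, 0.14 for PSMB4 and 0.11 for PSMA5, and PSMD6 differed by -0.13. On caruncular slides 7 and 10 the inducible genes differed by 0.35 to 1.36, and each pregnant array lay above the cyclic array of its slide for each of them. PSMC3 differed by 0.32 and 0.39 on those slides, PSMD12 by 0.05 and 0.28, and PSMD6 by -0.02 and -0.22. With slide as a fixed block, 5 of the 6 caruncular calls remained, PSMA2 being lost (0.76, adjusted p = 0.131), beside 1.54% of all probes, and no member was called in intercaruncular tissue (PSMB9 1.31, adjusted p = 0.0561), where that fit rests on slide 2 and called 0.865% of all probes. In caruncular tissue the fixed-block fit rests on slides 7 and 10, with 1 cyclic array each. It took each array by itself, so that repeated arrays of a sample counted separately. With slide as a random block the 6 caruncular and the 4 intercaruncular genes were all called, beside 7.62% and 4.45% of all probes.

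Genes of the neighbouring pathway were read from a list. Of 8 measured genes of antigen processing, 3 were called higher in each tissue, namely TAP1, a chain of the peptide transporter, with log2 changes of 1.76 and 1.27, B2M, the light chain of MHC class I, with 1.37 and 0.89, and IRF1, a transcription factor of the interferon response, with 1.22 and 0.66. The shares of all probes called higher were 5.77% and 3.99%. Of 11 measured regulators and cofactors of the proteasome, including the assembly factor POMP (0.06 in caruncular tissue) and the transcription factor NFE2L2 (-0.26), none was called at 1.5-fold. At the adjusted p alone the deubiquitinase USP14 was higher (0.41 and 0.43) and the segregase VCP lower (-0.20 and -0.19) in both tissues, and NFE2L2 was lower in intercaruncular tissue (-0.39).

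Markers of immune cells moved with the same comparison. In caruncular tissue 3 of 6 macrophage markers (AIF1 1.19, CSF1R 0.73, MRC1 0.65), 3 of 4 natural killer markers (KLRB1 1.10, NKG7 0.75, PRF1 0.71) and 1 of 5 general leukocyte markers (CD53 1.71) were called higher, and none of 5 T cell or 3 B cell markers. Among all probes 5.77% were called higher in that tissue. Without the fold limit 4 of 5 leukocyte markers and 1 of 5 T cell markers were higher there and none lower, beside 11.4% of all probes higher. The mean log2 ratio over the macrophage markers ran from -1.04 to -0.09 in cyclic and from -0.46 to 0.68 in pregnant cows, that over the leukocyte markers from -0.64 to 0.16 and from 0.06 to 0.72, and that over the natural killer markers from -0.98 to 0.29 and from -0.29 to 0.68. The defining natural killer gene NCR1 was below the filter. In intercaruncular tissue 2 of 6 macrophage, 1 of 4 natural killer and 1 of 5 leukocyte markers were called higher (3.99% of all probes), and the mean ratios overlapped more, from -0.87 to -0.07 and from -0.56 to 0.62 for macrophages and from -0.71 to 0.19 and from -0.66 to 0.35 for leukocytes. At the adjusted p alone, 2 of these leukocyte markers were higher and 1 was lower there. Of the smooth muscle markers 4 of 5 were called lower in each tissue, and of the endothelial ones 2 of 5, beside 4.21% and 3.25% of all probes. Of 6 stromal markers 1 was called higher and 1 lower in caruncular tissue (median log2 change -0.42) and 3 lower in intercaruncular tissue (-0.66), and of 4 epithelial markers 1 higher and 1 lower (-0.52) and 1 higher (0.06). Their part in the changes of the inducible genes was not tested.

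Whether the change with pregnancy differed between tissues was tested as an interaction over all 44 samples. None of the 43 genes passed at an adjusted p below 0.05 (limma, 2 at an unadjusted p below 0.05, namely PSMD2 and PSMA6), where 0.0204% of all probes did, and none passed with the cow as a block, where 1.02% did. Without the cow as a block, 1083 of 14690 probes had an unadjusted p below 0.05. The change was 0.11 to 0.23 larger in caruncular tissue for the 5 inducible genes. The 95% interval of that difference was -0.21 to 0.66 for PSMB9 and -0.18 to 0.41 for PSME2, so that a difference of this size between tissues could not be told from none.

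The tissues themselves were then compared. In cyclic cows the caruncular minus intercaruncular differences of the 5 inducible genes ran from -0.41 to -0.17, of which 2 passed the test, and in pregnant cows from -0.18 to 0.06, of which none did. In cyclic cows 14 of 43 genes (32.6%) passed, 6 as higher and 8 as lower in caruncular tissue, beside 33.5% of all probes (16.3% higher, 17.2% lower), so the family was no more often called than the array. PSMB10 was lower by 0.41 ± 0.08 (adjusted p = 0.000491, limma) and PSME2 by 0.22 ± 0.06 (adjusted p = 0.00925). Both tissues came from the same cow, and with the cow as a block 25 genes passed (54.1% of all probes), among them PSMB9 (-0.29, adjusted p = 0.00894) and PSMB8 (-0.27, adjusted p = 0.043). Within cows, PSMB10 was higher in the caruncular sample of 1 of 10 cyclic cows and PSMB9 also of 1 of 10.

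Other members with a tissue difference in cyclic cows were PSMA6, an alpha subunit (-0.75), PSMF1 (-0.30), PSMA2 (-0.29), PSME3 (-0.26), PSMD10, also known as gankyrin (-0.24) and the ubiquitin receptor PSMD4 (-0.22), all lower, and the probe described as PSMA8 (0.52), PSMB3 (0.51), the cap chaperones PSMD5 (0.37) and PSMD9 (0.28), the lid subunit PSMD12 (0.31) and the large scaffold PSMD2 (0.20), all higher in caruncular tissue. In pregnant cows 10 genes (23.3%) passed beside 48.5% of all probes (23% higher, 25.5% lower), and none of the inducible genes was among them (0 at an unadjusted p below 0.05, beside 8020 of 14690 probes). The higher ones were the probe described as PSMA8 (0.58), PSMB3 (0.44), PSMD12 (0.36), PSMD5 (0.34) and PSMD9 (0.25), and the lower ones PSMA6 (-0.34), the ATPase PSMC5 (-0.33), PSMD4 (-0.22), PSMD10 (-0.22) and the lid subunit PSMD13 (-0.14). With the cow as a block 1 inducible gene, PSMB10, passed in pregnant cows (-0.18, adjusted p = 0.0083), beside 61.5% of all probes. The second PSMD12 probe went the other way in both states (-0.54 and -0.45), so the tissue difference of this gene depends on the probe. The PSMA7 probe, with the same accession as the probe described as PSMA8, passed in neither state. Its median differences within cows were 0.20 in cyclic and 0.15 in pregnant cows, against 0.60 and 0.57 for the probe described as PSMA8.

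Tissue and slide could hardly be told apart, since scan day 1 held intercaruncular and scan day 2 caruncular arrays. Both tissues of a cow shared a slide for Non-Pregnant_9786 and Pregnant_9790. On those slides the caruncular minus intercaruncular difference of PSMB10 was -0.31 and -0.08, that of PSMA6 0.13 and -0.09, that of PSMB3 0.16 and -0.22, and that of PSMD4 -0.21 in each. PSMB10 and PSMD4 thus kept their direction on both slides, and PSMA6 and PSMB3 on 1 of them. The probe described as PSMA8 (-0.02 and -0.15) and PSMD5 (-0.11 and -0.13) went against their differences above on both slides. In Non-Pregnant_9786 PSMD10 (0.23), PSME1 by its brighter probe (0.23) and PSME2 (0.04) also ran against the cyclic differences. The dimmer PSME1 probe gave -0.08 there, and PSMB8 (-0.12) and PSMB9 (-0.28) ran with the cyclic differences. In Pregnant_9790 PSMD12 (-0.06) ran against the pregnant difference. With slide as a random block 3 of the 14 genes in cyclic cows still passed, PSMB10 (-0.35, adjusted p = 0.0398), PSMA6 (-0.60) and PSMB3 (0.49). Over all probes the number passing fell likewise, from 4927 to 1380 of 14690.

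Embryo size set the 7 cows with a large embryo against the 5 with a small one. In intercaruncular tissue 41 of 43 members were higher beside a large embryo, by a median of 0.24, where the median over all probes was -0.01. In this tissue 4 genes (9.3%) passed, all higher, beside 3.69% of all probes in either direction, 1.57% as higher and 2.12% as lower, and all 4 were constitutive. PSMB5 ran from -0.74 to -0.07 (median -0.34) with a large embryo and from -1.02 to -0.75 (median -0.80) with a small one, without overlap, a log2 change of 0.48 ± 0.12 (adjusted p = 0.0461, limma). The probe described as PSMA8 ran from -0.37 to 0.29 and from -0.95 to -0.49, also without overlap (0.60 ± 0.13, adjusted p = 0.0307). The PSMA7 probe, which carries the same accession, did not pass. PSMB4, a structural beta subunit, and PSMA1, an alpha subunit, differed by 0.46 each (adjusted p = 0.0388 and 0.0453), with 6 and 5 of 7 large-embryo cows above every small-embryo cow.

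The inducible genes pointed the same way without passing (limma, 2 of 5 at an unadjusted p below 0.05, beside 3169 of 14690 probes). Their intercaruncular differences were 0.24 for PSMB8, 0.49 for PSMB9 (95% interval 0.00 to 0.98), 0.39 for PSMB10, 0.09 for PSME1 and 0.28 for PSME2, with a median of 0.28. Pregnant_3956, with a small embryo, was the highest of all pregnant cows for PSMB8 (0.78) and PSME1 (0.88) and level with the highest for PSMB9 (0.86) in that tissue, whereas the other 4 small-embryo cows were at or below -0.04 for PSMB8. Without it PSMB9 (0.71, adjusted p = 0.0439) and PSMF1 (0.58, adjusted p = 0.021) passed beside PSMA1 and the probe described as PSMA8, PSMB4 and PSMB5 did not, and 4.38% of all probes were called. Pregnant_9790, with a large embryo, was among the lowest, with -0.21 for PSMB8 and -0.39 for PSMB10. Its array was the only intercaruncular one of a pregnant cow on slide 10 and scan day 3, so cow and slide cannot be told apart. Without Pregnant_9790 15 genes passed (12.8% of all probes), including PSMB10 (0.50, adjusted p = 0.0371).

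The embryo calls turned on other cows too. No member passed without Pregnant_3805, Pregnant_3807, Pregnant_9246 or Pregnant_932, where 53, 67, 50 and 34 of 14690 probes did. Without Pregnant_1943, Pregnant_3803, Pregnant_3957 or Pregnant_977 1 member passed, beside 144, 222, 206 and 277 probes. Without Pregnant_926 2 passed, beside 343 probes. With all cows 542 probes passed, so calls were lost over the whole array and not in this family alone. Of the slides with both embryo sizes in intercaruncular tissue, the inducible genes were higher by a median of 0.57 on slide 1 (1 large, 3 small), by 0.22 on slide 2 (2 large, 1 small) and differed by a median of -0.15 on slide 12 (3 large, 1 small, Pregnant_3956). The other 38 members were higher by medians of 0.24, 0.25 and 0.21 on the same slides. With slide as a fixed block 12 members passed, all constitutive or regulatory (7.39% of all probes), and with slide as a random block 7, also without an inducible gene (5.96%).

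**Figure D4:**
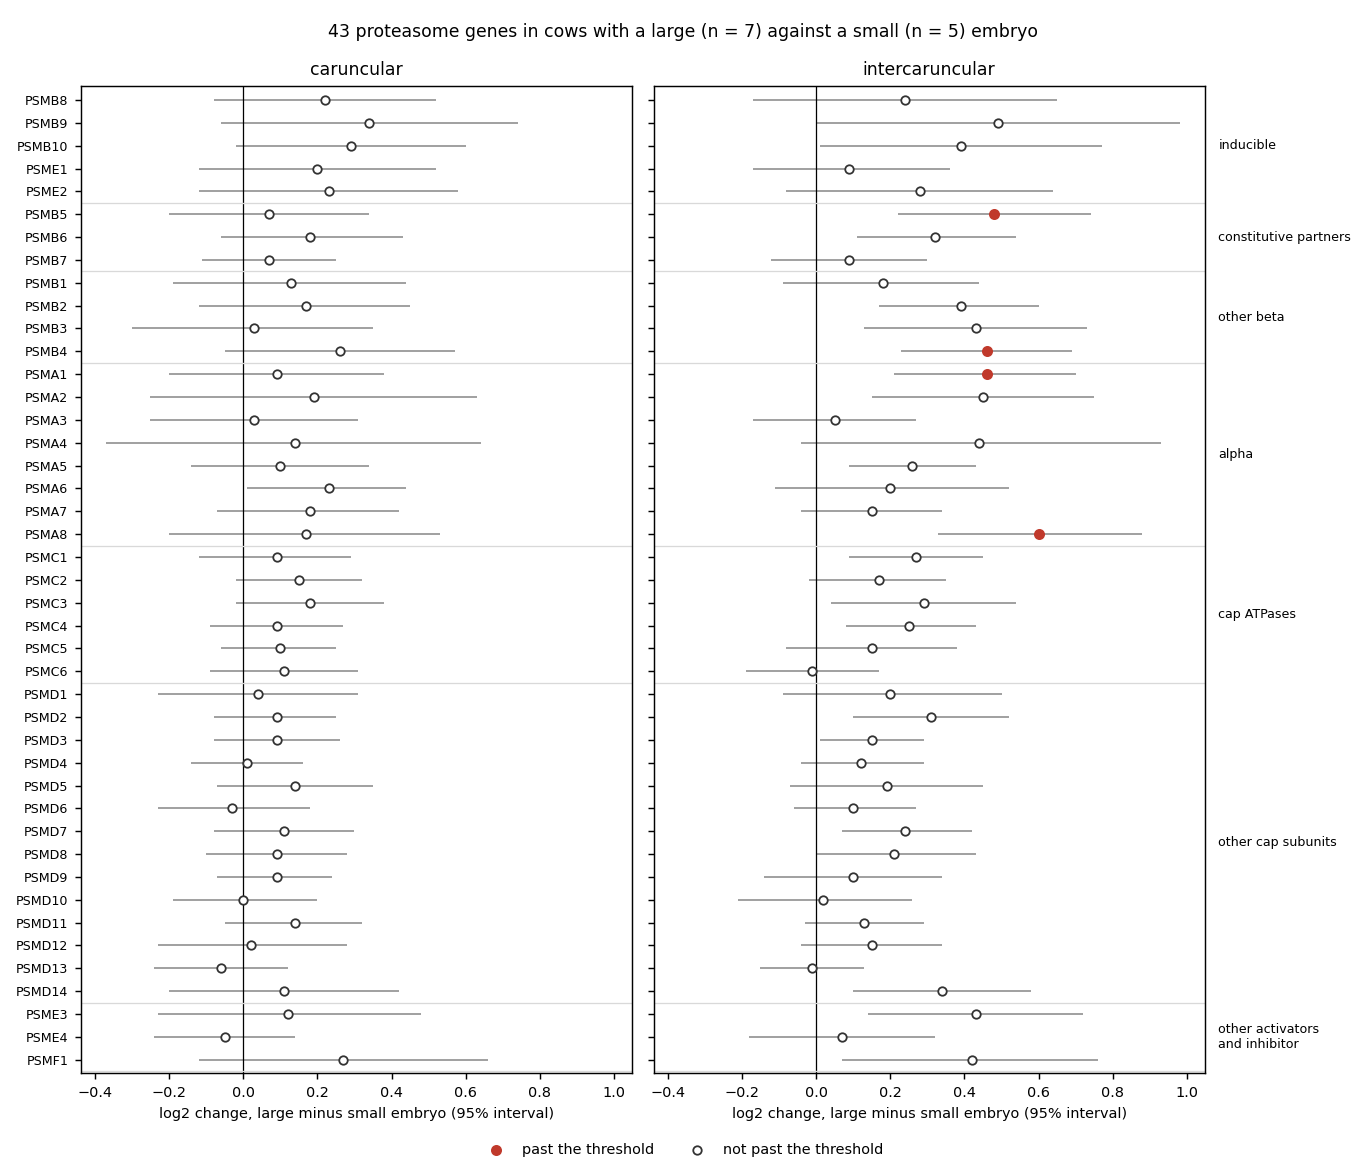
Log2 change between cows with a large (7 cows) and a small (5 cows) embryo with its 95% interval (horizontal axis) for all 43 genes ordered by role (vertical axis), with filled points at an adjusted p below 0.05. In intercaruncular tissue 41 of 43 points lie above 0 and the 4 filled points belong to constitutive genes, and in caruncular tissue no point is filled.

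Few markers of other cells passed for embryo size in intercaruncular tissue, but the mean ratios of several lists were shifted. The mean log2 ratio over the smooth muscle markers ran from -1.73 to -0.61 with a large and from -0.79 to 0.00 with a small embryo, that over the stromal markers from -0.65 to 0.14 and from -0.05 to 0.28, and that over the epithelial markers from -0.21 to 0.26 and from -0.43 to -0.09. Of these lists 0 of 5, 1 of 6 (lower) and 0 of 4 genes passed, and 1 of 5 endothelial markers was lower, beside 2.12% of all probes passing as lower. The mean over the macrophage markers ran from -0.44 to 0.62 (median 0.27) with a large and from -0.56 to 0.27 (median -0.22) with a small embryo. That over the natural killer markers ran from -0.16 to 0.82 (median 0.50) and from -0.71 to 0.34 (median 0.12), and none of these 6 and 4 genes passed. PAG1, the conceptus marker measured, ran from -0.28 to 0.66 and from -1.87 to -0.08. Their part in the difference was not tested.

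In caruncular tissue no member and 0% of all probes passed for embryo size (limma, 1 member at an unadjusted p below 0.05, beside 1014 of 14690 probes, 0 members by an unequal-variance test with adjustment). Still 39 of 43 members had a positive difference, with a median of 0.11 beside 0.01 over all probes, and the inducible genes differed by 0.20 to 0.34. PSMB9 ran from -0.32 to 0.64 (median 0.42) with a large and from -0.30 to 0.60 (median -0.04) with a small embryo, so that the groups overlapped over nearly the whole range. The 95% interval of its difference was -0.06 to 0.74. Of the slides with both embryo sizes in this tissue, slide 5 (3 large, 1 small) had 11 of the 38 other members higher beside a large embryo (median -0.08), slide 6 (1 large, 3 small) 29 (median 0.10) and slide 7 (2 large, 1 small) 35 (median 0.30). The medians over the inducible genes were 0.16, 0.33 and 0.42.

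The fertility label separated no member. Between 6 fertile and 6 sub-fertile cows no gene passed in either tissue (limma, 4 and 1 members at an unadjusted p below 0.05), beside 0% of all probes in caruncular and 0.0477% in intercaruncular tissue (0.00681% higher, 0.0408% lower). At that unadjusted p, 2024 and 2000 of 14690 probes passed in the respective tissues. PSMB9 differed by 0.36 in caruncular tissue (95% interval -0.03 to 0.74) and by 0.26 in intercaruncular tissue (-0.28 to 0.80), and PSME2 by 0.32 (0.00 to 0.63) and 0.30 (-0.05 to 0.65). The intercaruncular differences turned, with slide as a fixed block, to -0.51 for PSMB9 and -0.13 for PSME2, with 0 of 5 inducible genes (median -0.39) and 4 of 38 other members positive, and still none passed. PSMA4, an alpha subunit, had the largest differences, 0.49 and 0.48 (adjusted p = 0.307 and 0.351). Over the members the median was 0.10 in caruncular and 0.04 in intercaruncular tissue.

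Among pregnant cows the levels of most of the genes compared were correlated. Pregnant_9790, Pregnant_977, Pregnant_3807 and Pregnant_9246 held the 4 lowest caruncular values of PSMB8, PSMB9, PSMB10, PSME1, PSMF1, PSMA2 and the constitutive PSMB6, a set named after the values were seen. For PSME2 the 4 lowest were Pregnant_977, Pregnant_3803, Pregnant_9790 and Pregnant_3807. The other constitutive counterparts also differed. For PSMB5 the 4 lowest were Pregnant_3807, Pregnant_977, Pregnant_3805 and Pregnant_932, and for PSMB7 Pregnant_3807, Pregnant_977, Pregnant_9790 and Pregnant_3805. PSMB9 was correlated with 6 other members in each of 4 groups of cows, 24 relations in all, with p-values from 100000 permutations. In pregnant cows PSMB9 followed PSMB8 (r = 0.90 in caruncular and 0.86 in intercaruncular tissue, rho = 0.85 and 0.80, permutation p = 0.00018 and 0.0011, adjusted 0.0023 and 0.0044, n = 12), and it followed PSME2 as closely (r = 0.85 and 0.92, rho = 0.86 and 0.89, permutation p = 0.0015 and 0.00031, adjusted 0.0045 and 0.0025). Leaving out the 2 cows farthest from the median of PSMB9 left r at 0.84 and 0.83 for PSMB8 and at 0.79 and 0.93 for PSME2. PSMB10 (r = 0.79 and 0.90, rho = 0.71 and 0.84, permutation p = 0.0043 and 0.00019, adjusted 0.0094 and 0.0023) and PSMF1 (r = 0.71 and 0.79, rho = 0.62 and 0.80, permutation p = 0.011 and 0.0015, adjusted 0.022 and 0.0045) also followed PSMB9, with r of 0.63 and 0.87 and of 0.50 and 0.81 without the 2 farthest cows. PSME1 passed in neither tissue (r = 0.51 and 0.63, rho = 0.50 and 0.57, permutation p = 0.09 and 0.032, adjusted 0.11 and 0.055), and its r was 0.19 and 0.54 without those cows.

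The relation among pregnant cows was not limited to inducible genes, since PSMB9 followed the constitutive PSMB6 as well (r = 0.82 and 0.88, rho = 0.70 and 0.79, permutation p = 0.0017 and 0.00092, adjusted 0.0045 and 0.0044, and r = 0.71 and 0.83 without the 2 farthest cows). In cyclic cows it did not (r = -0.14 and -0.39, rho = 0.13 and -0.31, permutation p = 0.69 and 0.26, adjusted 0.75 and 0.31, n = 10), while PSMB9 and PSMB8 gave r = 0.83 and 0.68 there (rho = 0.88 and 0.78, permutation p = 0.0035 and 0.031, adjusted 0.0084 and 0.055). PSMB9 and PSME2 gave r = -0.13 and 0.57 in cyclic cows (rho = 0.30 and 0.49, permutation p = 0.73 and 0.089, adjusted 0.76 and 0.11), and r = 0.76 and 0.65 without the 2 farthest cows. The difference between states in these correlations was not tested. PSMB6 was the only constitutive counterpart correlated with PSMB9, and PSMB5 and PSMB7 were not examined in this way. The arrays share the pooled reference, and a slide held at most 4 arrays of a group, too few for a correlation within slides.

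The spread between cows is given as a description, without a test. For the 5 inducible genes the median SD within groups was 0.15 in caruncular tissue of cyclic cows, 0.28 in that of pregnant cows, 0.29 in intercaruncular tissue of cyclic cows and 0.35 in that of pregnant cows. For the other members it was 0.16, 0.17, 0.18 and 0.18, and over all probes 0.27, 0.25, 0.28 and 0.27. The median SD of the constitutive members lay below that of all probes in the 4 groups of samples, and that of the inducible genes lay below it in caruncular tissue of cyclic cows and above it in the other groups.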

How the data were processed

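Arrays of 44 samples of 22 cows, 4 samples of them hybridised again (48 arrays), were analysed. Per the file headers, the authors extracted the deposited intensities and log10 ratios with Agilent Feature Extraction (version 9.5.3.1 in the headers), with spatial detrending switched on and LOWESS settings listed for dye normalisation, and with Cy5 for the sample and Cy3 for the pool and no dye swap. The deposited matrix of log2 ratios, an alternative here, equalled these values within 1e-05 in 40 of 48 columns. Ratios were taken to log2, outlier spots were left out, spots of a probe and repeated arrays of a cow were averaged, and each array was centred on its median. The pregnancy fit with slide as a fixed block took repeated arrays separately instead. Probes with an intensity of at least 80 and well above background in 22 of 44 samples were kept (14690). limma 3.58.1 (R 4.3.3) was fitted to all of them with Benjamini-Hochberg adjustment, and the fits were tested on simulated data. Figures were drawn with matplotlib 3.10.9 and correlations computed with scipy 1.17.1. A gene with several probes is given by its brightest tested probe. The named genes are the inducible genes, their counterparts and each member past a threshold. A list of interferon signalling genes is not reported here. Members and lists were chosen with earlier results of these data known. Tissues are paired by cow, and deviations of a cow's tissues from their group means correlated at 0.11 to 0.87 (22 of 22 above 0.1). The number of arrays limits precision.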

Additional observations from a re-analysis of the deposited data

Results flagged for a closer look

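Over 10 genes in 10 groups of 5 to 10 cows each (100 sets of values), 13 sets held a cow far from the others by Dixon's test, where chance alone flags about 1 set in 20, and the fertility and embryo groups share cows. Pregnant_9790 (large embryo) was the lowest of 7 in caruncular tissue for PSMB8 (-0.29, next 0.20), PSMB9 (-0.32, next 0.25) and PSMA2 (-0.44, next 0.12), and in intercaruncular tissue for PSMA2 (-0.25, next 0.26). Both arrays of this cow lay on slide 10, scanned on day 3, apart from the first arrays of the other pregnant cows. The part of the slide in its values was not tested. Pregnant_3956 (small embryo) was the highest of 5 in intercaruncular tissue for PSMB8 (0.78, next -0.04), PSMB9 (0.86, next -0.14), PSME2 (0.44, next -0.17) and PSMB7 (0.29, next -0.03), and the highest of 6 fertile cows in caruncular tissue for PSMB5 (-0.14). Pregnant_3803 was the highest of the large-embryo cows for caruncular PSMB5 (0.05), and Pregnant_9246 the lowest of the fertile cows for caruncular PSMB8 (-0.22). Among cyclic cows, intercaruncular PSMB10 was lowest in Non-Pregnant_3972 (-0.54) and PSMF1 in Non-Pregnant_9960 (-1.47).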

How the results depend on the processing

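The pregnancy calls were the same in number under normexp with loess, no centring, no filter, the deposited matrix, the mean of a gene's probes, first arrays alone, scan day as a block, slide as a random block and the methods' t-test in Welch's version. With slide as a fixed block 0 members and 0 inducible genes were called in intercaruncular tissue. The tissue count in cyclic cows fell to 3 members (1 inducible) with slide as a random block, beside 1380 of 14690 probes. It rose to 25 (4 inducible) with the cow as a replicate block, beside 7940 probes. The main fit called 4927 probes. The cow block also gave 1 inducible gene in pregnant cows and changed no other count of calls by over 1.5 times. The mean of its probes turned PSMD12 to -0.11 in cyclic and -0.05 in pregnant cows. The intercaruncular embryo count was 2 without the filter (319 of 21475 probes) and 7 and 12 with slide as a random and fixed block (876 and 1086 of 14690). By Welch's version with adjustment (chosen after seeing the data) it was 2 (190 probes). When 1 cow was left out it was 0 to 15, with 0 to 1 inducible genes, beside 34 to 1882 probes.

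Signs of values that were not called turned. With slide as a fixed block the fertility differences became -0.09 for PSMB10 and -0.03 for PSME1 in caruncular tissue, and in intercaruncular tissue -0.41 for PSMB10, -0.19 for PSMB5 and PSMB6, -0.04 for PSMB7, -0.39 for PSMB8, -0.51 for PSMB9 and -0.13 for PSME2. PSMB5 became -0.02 with slide as a random block (intercaruncular fertility). With 1 cow left out PSMB5 ran from -0.02 to 0.13 for caruncular and from -0.02 to 0.18 for intercaruncular fertility and from -0.01 to 0.16 for caruncular embryo size, and PSME1 from -0.10 to 0.03 for intercaruncular fertility. The cause was not tested. Slides, which mostly hold 1 state and 1 tissue, and 5 small-embryo cows limit these comparisons.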
